A study of Homo sapiens with 12 samples.

Results

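The respiratory chain is built from 2 genomes, and its RNAs were followed here as 109 genes among the 21569 of a raw count table from TC71, an established human Ewing sarcoma cell line. Members were taken by symbol and gene type: the 13 mRNAs and 2 rRNAs of mitochondrial DNA, and 94 protein-coding nuclear genes with symbols of the NDUFA, NDUFB, NDUFC, NDUFS, NDUFV, UQCR, COX4 to COX8 and ATP5 series, SDHA to SDHD, and CYC1. A further 38 genes whose symbols met the rule were left out as pseudogenes, tRNAs or non-coding. Complex I assembly factors named NDUFAF came in with the NDUFA symbols, and COX4I2, COX6A2 and COX7B2 were not analysed here. Of the 109, 105 passed the filter on low counts (90 nuclear and all 15 mitochondrial) and 102 had at least 10 counts in every library. COX6B2, COX7A1, COX8C and ATP5MGL were not tested, with 1 to 25 counts summed over the 3 libraries of a group.

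All 12 libraries came from poly(A) RNA of TC71 cells grown in DMEM with 10% FBS, in 4 groups of 3: wild-type, 2 single clones with knockout of ID2 (clone 1 and clone 2), and a line labelled as an ID2 rescue of clone 2. ID2 pairs with E-protein transcription factors and blocks their binding to DNA. Its RNA stood at 77.6, 78.6 and 77.4 CPM (counts divided by the scaled library size) in wild-type, 17.9, 17.4 and 18.9 in clone 1, 47.8, 50.8 and 54.1 in clone 2 and 42.0, 41.7 and 40.9 in the libraries labelled rescue. The last were below clone 2, which goes against a rise in ID2 RNA in that line, and the group is therefore called by its label throughout. ID2 protein was not analysed here, and an edited gene can still give RNA. Library totals ran from 19420408 to 29748084 counts. The 7 Ewing sarcoma markers looked for were all present, with group means from 11.1 CPM (NKX2-2, wild-type) to 1545 CPM (CCND1, clone 1). Of 9 markers of other cells 6 had a row. Their summed level was 133.7 to 138.4 CPM in wild-type, 769 to 822 in clone 1, 143 to 158 in clone 2 and 39.7 to 45 in the libraries labelled rescue. Most of the clone 1 sum was the keratin KRT8, at 504 CPM against 7.59 in wild-type, while the blood marker PTPRC stayed between 0.057 and 0.111 CPM. The part of these markers in the results below was not tested. Separate cultures are not mentioned for the 3 libraries of a group, so the spread behind every p-value may be technical.

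The respiratory chain passes electrons from NADH (complex I) and succinate (complex II) through ubiquinone, complex III, cytochrome c and complex IV to oxygen, and complex V uses the resulting proton gradient to make ATP. Complexes I, III, IV and V hold subunits of both genomes, whereas complex II is wholly nuclear. Mitochondrial DNA is transcribed from both strands as long precursors, which are cut mostly at the tRNAs between the genes. Most of the mRNAs then receive a poly(A) tail, MT-ND6 being known to carry little or none, and the mitochondrial ribosome that translates them carries both mitochondrial rRNAs. For several of these mRNAs the tail also completes the stop codon. The 30 last annotated bases follow for the mRNAs on which the results turn most. Among these MT-ND1, MT-ND2 and MT-CYB have part of a stop codon, and MT-CO1 and MT-ND6 a whole one. The stop codon, or the part of it that is encoded, is in capitals (sequences from the GENCODE 29 transcripts).
MT-ND1: tacaatctccagcattccccctcaaaccTA
MT-ND2: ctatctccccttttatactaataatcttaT
MT-CYB: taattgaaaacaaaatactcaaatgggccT
MT-CO1: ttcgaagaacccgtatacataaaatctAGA
MT-ND6: attgtaattgagattgctcgggggaatAGG
By their annotated ends, 6 of the 13 mRNAs have an incomplete stop codon: MT-ND1, MT-ND2, MT-CO3, MT-ND3, MT-ND4 and MT-CYB. MT-ATP6 was counted as complete, but its last annotated base, 9207, is also the first of MT-CO3, so its class is uncertain. The libraries were made from poly(A) RNA, so more of an RNA and a larger share of it with a tail cannot be told apart. In bulk samples, fewer cells with an RNA and less of it per cell cannot be told apart either.

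The mitochondrial RNAs took a larger share of all counts in both knockout clones, and the nuclear members did not change their summed share by a like amount. The 13 mitochondrial mRNAs held 2.76%, 2.78% and 2.84% of the counts in wild-type, 2.90%, 3.33% and 3.17% in clone 1, 3.88%, 3.92% and 3.75% in clone 2, and 3.58%, 3.24% and 3.6% in the libraries labelled rescue. Each of these 9 libraries lay above all of wild-type, clone 2 was the highest group, and the libraries labelled rescue overlapped with clone 1. The 94 nuclear members together held 1.21%, 1.18% and 1.20% of the counts in wild-type, 1.18%, 1.16% and 1.17% in clone 1, 1.21%, 1.19% and 1.22% in clone 2, and 1.23%, 1.29% and 1.23% in the libraries labelled rescue. Within a library, the ratio of mitochondrial mRNA to nuclear member counts does not depend on scaling between libraries. It was 2.28, 2.36 and 2.37 in wild-type, 2.47, 2.87 and 2.72 in clone 1, 3.22, 3.30 and 3.07 in clone 2, and 2.90, 2.51 and 2.92 in the libraries labelled rescue. On the log2 scale the mean ratio was 0.20 higher than wild-type in clone 1, 0.45 higher in clone 2 and 0.25 higher in the libraries labelled rescue. The last were 0.20 below clone 2 (−0.204), and 0.13 below (−0.132) without their library 2. Taken as medians of log2 CPM in place of sums, the clone 1 difference was 0.063.

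**Figure D1:**
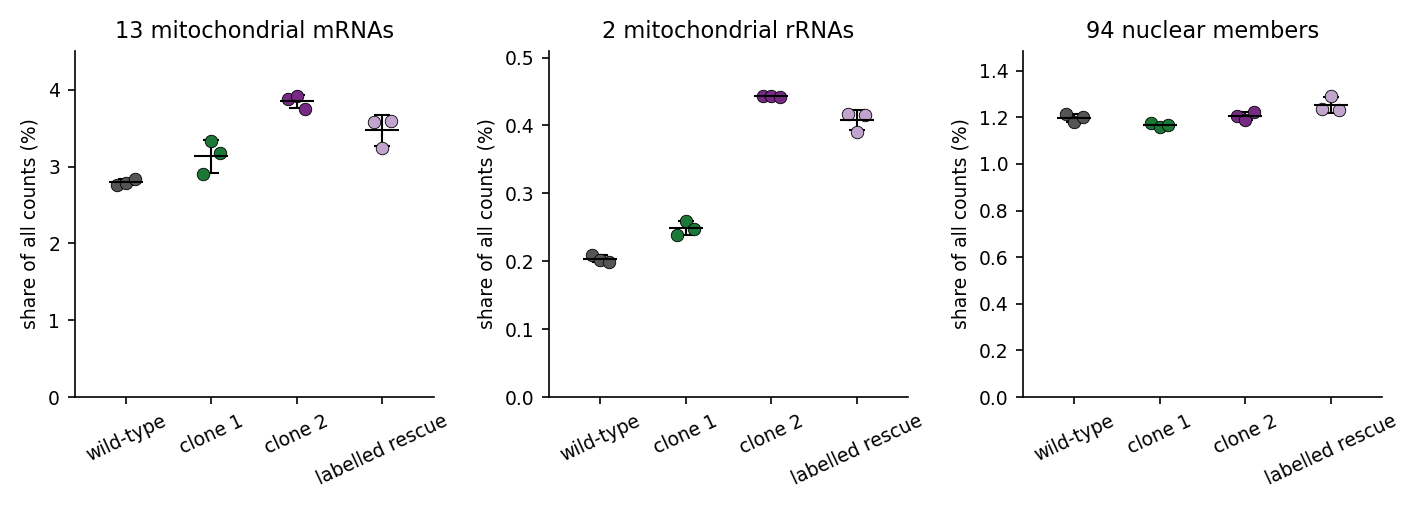
Share of all counts (%, linear axes from 0) held by the 13 mitochondrial mRNAs, the 2 mitochondrial rRNAs and the 94 nuclear members in each of 12 libraries. Points are libraries and bars give the mean and SD of 3 libraries. Both mitochondrial classes are highest in clone 2, while the nuclear share stays between 1.16% and 1.29%.

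The clone 1, clone 2 and rescue comparisons with wild-type share the same 3 wild-type libraries and are therefore set side by side only. A gene was called at an adjusted p under 0.05 (edgeR's quasi-likelihood test, Benjamini-Hochberg over all 17084 genes tested), and rose and fell are used of called genes. Against wild-type, 9 of the 15 mitochondrial members rose in clone 1 and none fell. In that comparison 61.5% of all genes tested were called and 30.8% were higher. MT-ATP6, MT-CYB and MT-ND4L lost their clone 1 call with the DESeq2 Wald test. MT-ATP6 and MT-CYB also lost it without clone 1 library 2 or clone 1 library 3. Under upper quartile scaling 11 rose, beside 31.5% of all genes tested called higher. In clone 2 all except MT-ND6 rose (14 of 15), where 62.1% of genes tested were called and 31.5% were higher. In the libraries labelled rescue 13 rose and none fell, beside a background of 58.4% called and 28.5% higher. The median log2 fold change of the 15 was 0.12, 0.37 and 0.20 in that order, beside 0.0064, 0.013 and 0.0035 over all genes tested. None of the 15 had a negative fitted change against wild-type in any of these comparisons. Clone 2 against clone 1 tests the difference between the clones itself. It gave 13 members higher in clone 2 and none lower, with a median of 0.22 (62.2% of all genes tested called, 30.3% higher). MT-ND2 and MT-ND4L each lost that call in 5 of 15 alternative settings, the DESeq2 Wald test among them. MT-ND4 lost it without clone 1 library 1. Under upper quartile scaling all 15 were higher, beside 35.7% of all genes tested.

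MT-RNR2 rose most of the 15 in clone 2, and both rRNAs rose most in the libraries labelled rescue against wild-type. MT-RNR2, the 16S rRNA of the large mitochondrial ribosomal subunit, was measured at 1888, 1861 and 1824 CPM in wild-type, 2116, 2280.0 and 2193 in clone 1, 4014, 3988 and 3989.5 in clone 2 and 3685, 3485 and 3681 in the libraries labelled rescue. The 4 groups did not overlap, and clone 2 was the highest. MT-RNR1, the 12S rRNA of the small subunit, was measured at 243, 226 and 222 CPM in wild-type, 271, 286 and 261 in clone 1, 369.7, 371 and 389 in clone 2 and 465, 433 and 461 in the libraries labelled rescue. Here the libraries labelled rescue, not clone 2, were the highest group. Both rRNAs rose alike in clone 1, with log2 fold changes of 0.24 for MT-RNR1 and 0.24 for MT-RNR2. In clone 2 the change was 0.71 (SE 0.037, adjusted p = 5.56e-20) for MT-RNR1 and 1.11 (SE 0.030, adjusted p = 7.54e-29) for MT-RNR2, the only mitochondrial member past 2-fold there (13.3% of all genes tested were called and changed at least 2-fold). Between clone 2 and the libraries labelled rescue MT-RNR2 fell by 0.14 (SE 0.030, adjusted p = 0.000148) and MT-RNR1 rose by 0.27 (SE 0.036, adjusted p = 6.67e-08). MT-RNR2 counts were thus 8.08 ± 0.26 (SD, n = 3) times those of MT-RNR1 in wild-type cells, 8.07 ± 0.31 in clone 1, 10.6 ± 0.31 in clone 2 and 7.99 ± 0.065 in the libraries labelled rescue. Counts of both rRNAs per 100 counts of the 13 mRNAs were 7.57, 7.26 and 7.03 in wild-type, 8.24, 7.79 and 7.79 in clone 1, 11.4, 11.3 and 11.8 in clone 2, and 11.6, 12.1 and 11.6 in the libraries labelled rescue. The rRNA to mRNA ratio was therefore high in both lines of clone 2 descent and did not come down in the libraries labelled rescue.

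Per length, the mRNAs of mitochondrial DNA ranged in wild-type from 6819 CPM per kb for MT-CO2, a core subunit of complex IV, to 601 for MT-ATP8 of complex V. MT-CO3 (4861 CPM per kb), MT-CO1 (3797), MT-ATP6 (2899) and MT-ND4 (2758) followed MT-CO2, and MT-ND6 (664) stood next to MT-ATP8 at the low end. MT-ND1 and MT-ND4L were equal within their spread at 1474 and 1474 CPM per kb. The highest nuclear member per kb of exon was ATP5F1B, the beta subunit of the ATP synthase, at 818. Poly(A) selection bears on the rRNAs, which carry only short tails, and here they had 1191 (MT-RNR2) and 241 (MT-RNR1) CPM per kb.

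Among the mitochondrial mRNAs of complex I, MT-ND2 and MT-ND1 moved most in clone 1. MT-ND2, a core subunit of the membrane arm, was measured at 1956, 2036 and 2093 CPM in wild-type, 2569, 2889 and 2880.2 in clone 1, 2931, 2985 and 2912 in clone 2 and 2379, 2202 and 2391 in the libraries labelled rescue. Both clones lay above the libraries labelled rescue, and these lay above wild-type. The log2 fold change was 0.45 (SE 0.036, adjusted p = 2.29e-14) in clone 1 and 0.54 (SE 0.036, adjusted p = 1.78e-16) in clone 2, and it fell by 0.34 (SE 0.036, adjusted p = 2.84e-10) from clone 2 to the libraries labelled rescue. MT-ND1, the subunit next to the quinone site, had 1405, 1441 and 1381 CPM in wild-type, 1543, 1774 and 1643 in clone 1, 1847, 1887 and 1757 in clone 2 and 1531, 1360.1 and 1473 in the libraries labelled rescue. The last overlapped with wild-type (log2 fold change 0.046 (SE 0.038, adjusted p = 0.312)). MT-ND3 had changes of 0.13 in clone 1, 0.29 in clone 2 and 0.05 in the libraries labelled rescue, the last not called (adjusted p = 0.213). MT-ND4 and MT-ND4L, which lie on 1 bicistronic mRNA and share 7 bases, moved together, with 0.18 and 0.17 in clone 1 and 0.31 and 0.29 in clone 2. MT-ND5 rose by only 0.12 in clone 2 (SE 0.039, adjusted p = 0.00967), a call lost in 5 of 15 alternative settings, among them those without wild-type library 1, clone 2 library 1 or clone 2 library 2 (adjusted p = 0.082 to 0.11).

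MT-ND6 is the 1 protein gene read from the other strand of mitochondrial DNA, next to MT-CYB. It had 341, 342 and 362 CPM in wild-type, 344, 386 and 353 in clone 1, 359, 379.6 and 366 in clone 2 and 409, 381 and 389.8 in the libraries labelled rescue. All wild-type, clone 1 and clone 2 values overlapped, and the libraries labelled rescue, the highest group, overlapped with clone 1. Its log2 fold change was 0.051 (SE 0.037, adjusted p = 0.235) in clone 1 and 0.078 (SE 0.037, adjusted p = 0.0616) in clone 2, neither called, and 0.17 (SE 0.036, adjusted p = 7.50e-05) in the libraries labelled rescue against wild-type. The clone 2 value was called under upper quartile scaling and in 2 other settings. MT-CYB, the 1 mitochondrial subunit of complex III, had 1758, 1716 and 1787 CPM in wild-type, 1763, 2009 and 1908 in clone 1, 3148, 3053 and 2986 in clone 2 and 2827, 2511 and 2874 in the libraries labelled rescue. Clone 1 overlapped with wild-type, and all libraries of clone 2 and of the group labelled rescue were above both. MT-CYB rose by 0.80 (SE 0.039, adjusted p = 5.81e-21) in clone 2, the largest change of any mitochondrial mRNA there, and by 0.11 (SE 0.039, adjusted p = 0.0123) in clone 1, where the call was lost with DESeq2 and without clone 1 library 2 or clone 1 library 3 (adjusted p = 0.056 to 0.13). MT-CYB was higher in clone 2 than in clone 1 by 0.69 (SE 0.039, adjusted p = 4.15e-19). The tail of MT-ND6 is known to differ from that of the other mRNAs, and poly(A) selection bears on any ratio to it. The count ratio of MT-CYB to MT-ND6 was 5.03 ± 0.11 in wild-type (SD, n = 3 here and for the other groups), 5.25 ± 0.15 in clone 1, 8.32 ± 0.39 in clone 2 and 6.96 ± 0.39 in the libraries labelled rescue. The ratio of MT-ND2 to MT-ND6 went another way, at 5.82 ± 0.11, 7.71 ± 0.40, 7.99 ± 0.16 and 5.91 ± 0.20 in the same order. The mRNAs of mitochondrial DNA thus did not move by a single factor: the MT-ND2 ratio separated both clones from the other 2 groups, and the MT-CYB ratio separated clone 2 and the libraries labelled rescue from wild-type and clone 1.

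**Figure D2:**
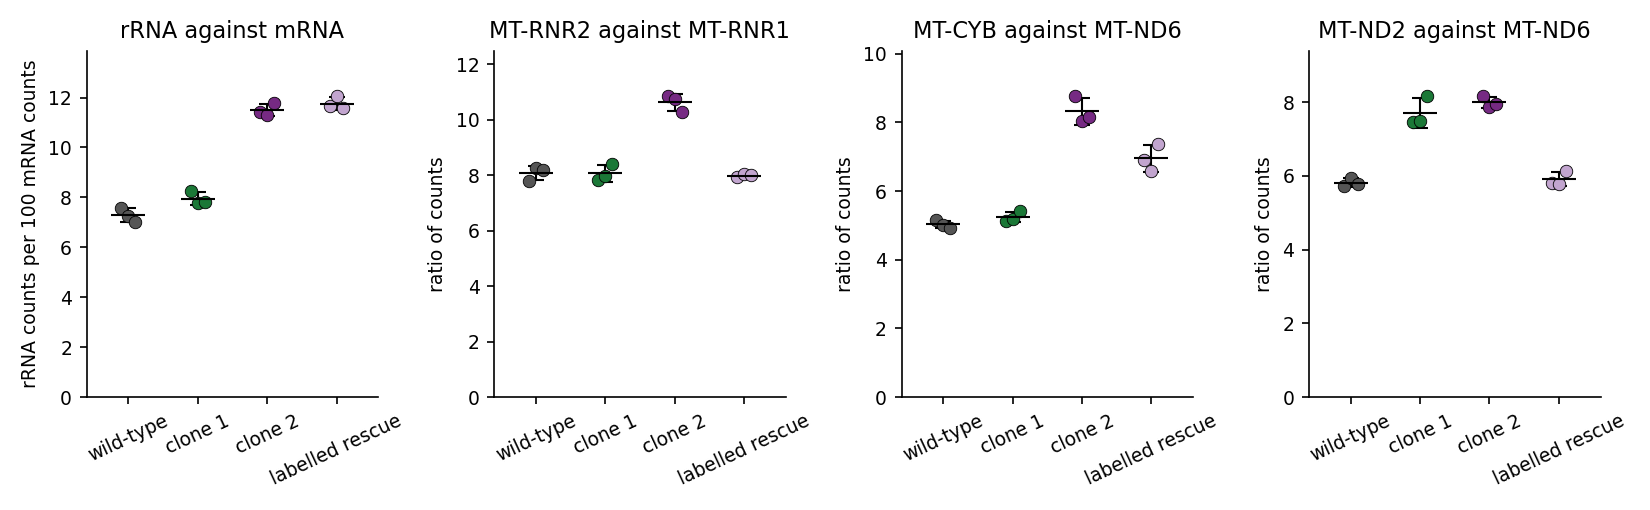
Count ratios within each of 12 libraries (linear axes from 0): both rRNAs per 100 mRNA counts, MT-RNR2 to MT-RNR1, MT-CYB to MT-ND6 and MT-ND2 to MT-ND6. Points are libraries and bars give the mean and SD of 3. MT-RNR2 to MT-RNR1 is raised in clone 2 alone (10.6), and MT-ND2 to MT-ND6 is 7.48 or more in both clones and 6.14 or less elsewhere.

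None of the 3 mitochondrial subunits of complex IV was called in clone 1, and all 3 rose in clone 2. MT-CO1, which holds the oxygen-reducing centre, had 5750.3, 5926 and 5891 CPM in wild-type, 5651, 6345 and 5958 in clone 1, 8440.1, 8645 and 8261 in clone 2 and 7860.1, 7074 and 7937 in the libraries labelled rescue. Clone 1 straddled wild-type, and the other groups lay above both without overlap. Its log2 fold change was 0.032 (SE 0.036, adjusted p = 0.461) in clone 1 and 0.53 (SE 0.036, adjusted p = 2.67e-16) in clone 2. MT-CO2 and MT-CO3 had smaller values in clone 1 (0.074 and 0.0098) than in clone 2 (0.29 and 0.37). MT-CO2 was called in clone 1 under 4 of 15 alternative settings, among them upper quartile scaling. All 3 were higher in clone 2 than in clone 1, by 0.50, 0.22 and 0.36 (adjusted p = 1.27e-15, 7.66e-07 and 6.16e-12).

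Complex V has MT-ATP6, the proton channel subunit, and MT-ATP8, a small stalk subunit, on 1 mRNA. Their frames overlap by 46 bases, in capitals at the end of MT-ATP8, which make up 22.2% of that gene, so reads there may be counted for either or neither.
MT-ATP8: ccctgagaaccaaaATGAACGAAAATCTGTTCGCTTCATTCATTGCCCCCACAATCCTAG
MT-ATP6 had 1934, 1937 and 2053 CPM in wild-type, 1956, 2257 and 2232 in clone 1, 2580.3, 2596 and 2545 in clone 2 and 2701, 2457 and 2719 in the libraries labelled rescue. Clone 1 overlapped with wild-type, and clone 2 overlapped with the libraries labelled rescue. It rose by 0.38 in clone 2 and by 0.41 in the libraries labelled rescue, and MT-ATP8 rose by 0.32 and 0.36. Neither differed between clone 2 and the libraries labelled rescue beyond the test's threshold, with 0.029 (SE 0.038, adjusted p = 0.593) for MT-ATP6 and 0.035 (SE 0.046, adjusted p = 0.593) for MT-ATP8.

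**Figure D3:**
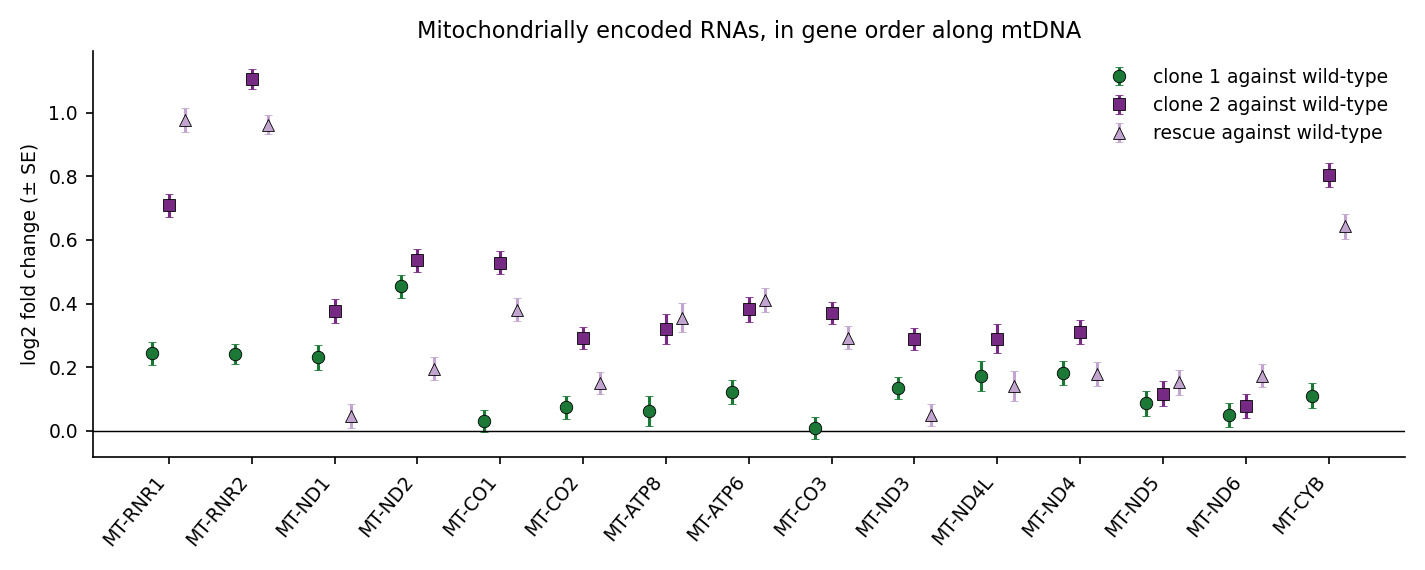
log2 fold change against wild-type (linear axis, bars give the SE of the edgeR fit) for the 15 mitochondrially encoded RNAs in gene order. Circles are clone 1, squares clone 2 and triangles the libraries labelled rescue. All 45 values are above 0, and MT-RNR2 (1.11) and MT-CYB (0.80) are the highest of clone 2.

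Rescue against clone 2 is the comparison in which the mitochondrial genes went down. Of the 15, 9 fell and 2 rose (MT-RNR1 and MT-ND6), beside 39.2% of all genes tested called and 19.9% lower, and the median was −0.14. Without library 2 of the group labelled rescue 7 fell, and MT-ND6 lost its call in 4 of 15 alternative settings, among them those without clone 2 library 1 or rescue library 1 (adjusted p = 0.096 to 0.12). MT-ND4L lost its call in 3, among them those without clone 2 library 1 or rescue library 2 (adjusted p = 0.077 to 0.32). MT-ND2, MT-ND1 (−0.33) and MT-ND3 (−0.24) fell most, and MT-CYB (−0.16), MT-ND4L (−0.15), MT-CO1 (−0.15), MT-CO2 (−0.14) and MT-ND4 (−0.13) fell less. MT-ATP6, MT-ATP8, MT-ND5 and MT-CO3 were not called. By annotation, the 6 mRNAs with an incomplete stop codon had a median of −0.20 here and ranged from −0.34 to −0.078. The 7 with a complete one had a median of 0.029 and ranged from −0.15 to 0.096. MT-ATP6, of uncertain class, was counted among the 7 and stood at 0.029 itself. Medians with MT-ATP6 in the other class were not worked out. In clone 2 against wild-type the medians were 0.37 and 0.29, and in clone 1 they were 0.16 and 0.074. In clone 2 against clone 1 the order was the other way, at 0.15 and 0.22, and in the libraries labelled rescue against wild-type the medians were close, at 0.19 and 0.17. These are descriptions of genes on a few shared precursors, which are not independent of each other.

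Nuclear copies of mitochondrial sequence can take or give reads. Of such copies 34 were counted, their counts came to 1.29% to 1.56% of the mitochondrial counts in every library, and the largest was MTATP6P1 on chromosome 1, with 287 CPM in wild-type and 389 in clone 2. Among the 23 tested, 18 rose in clone 2, 13 in the libraries labelled rescue and 3 in clone 1, and none fell. These are 78.3%, 56.5% and 13% of the copies, beside 31.5%, 28.5% and 30.8% of all genes tested called higher. How many of their reads came from mitochondrial RNA was not tested.

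The nuclear members moved in both directions. In clone 1, 20 of the 90 tested rose and 37 fell, with a median log2 fold change of −0.048, and in clone 2, 29 rose and 25 fell, with a median of 0.023. The fallen share was 41.1% in clone 1 and 27.8% in clone 2, beside 30.7% and 30.6% of all genes tested. Their called shares, 57 and 54 of 90, are near the background of 61.5% and 62.1% given above. In the libraries labelled rescue 34 rose and 21 fell against wild-type (median 0.047). Against clone 2, 25 rose and 2 fell (NDUFAF7 and NDUFAF2), with a median of 0.041. The called share of 30% is below the 39.2% of all genes tested, with 27.8% higher beside 19.3%. Upper quartile scaling moved these splits, to 45 rose and 18 fell in clone 2, to 17 and 5 for rescue against clone 2, and to 43 and 17 for rescue against wild-type. Under that scaling 37.5%, 16.2% and 32.4% of all genes tested were called higher in these 3 comparisons. Changes were small: 4 nuclear members passed 2-fold in clone 2 and 2 in clone 1 (NDUFA13 and NDUFV2), against 13.3% and 13.7% of all genes tested. From clone 2 to the libraries labelled rescue no member passed 2-fold (4.95% of all genes tested), and against wild-type NDUFA13 alone did (10.8%). Of these, NDUFA13, NDUFA7 and NDUFV2 had only 13 to 135 counts per group of 3 libraries, and 21% to 33.5% of their exon bases lie within exons of other genes, so their values are uncertain. NDUFA13 had 0.461, 0.663 and 0.207 CPM in wild-type and 1.85, 1.62 and 1.76 in clone 2.

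**Figure D4:**
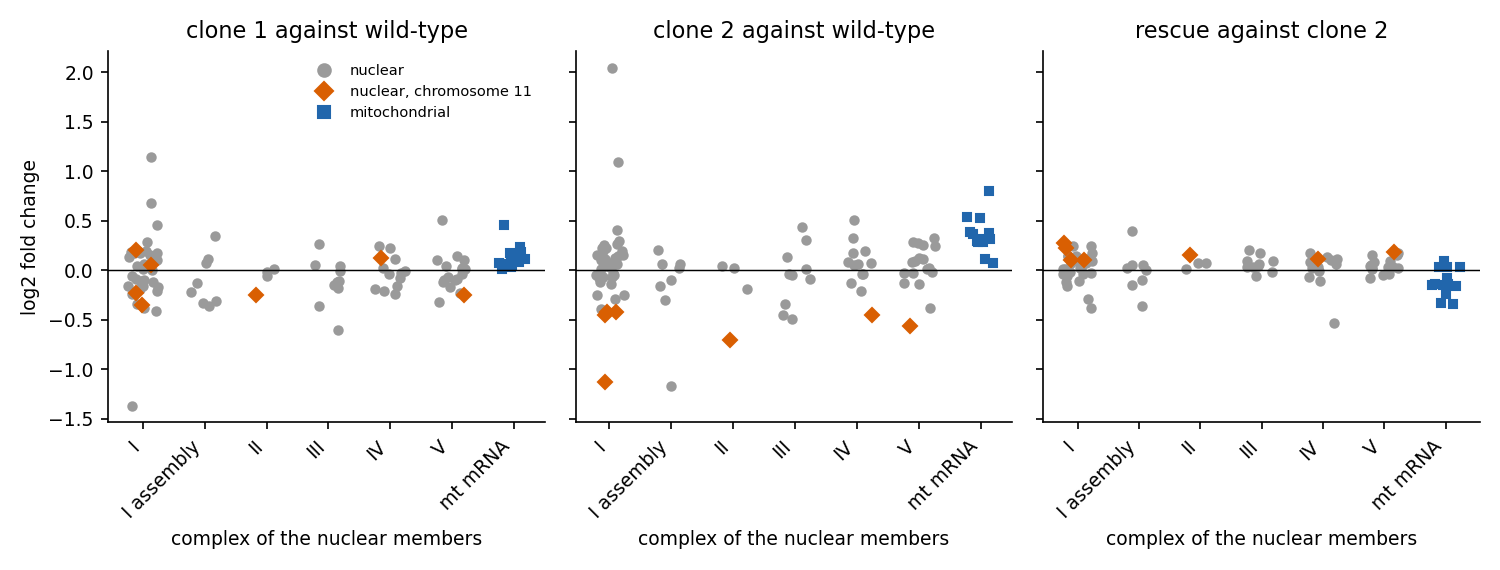
log2 fold change (linear axis, shared by the 3 panels) of the 90 tested nuclear members by complex and of the 13 mitochondrial mRNAs, for clone 1 and clone 2 against wild-type and for rescue against clone 2. Each point is a gene, its horizontal offset within a column is arbitrary, and diamonds mark the 7 nuclear members on chromosome 11. In clone 2 all 7 diamonds are below 0 and all mitochondrial squares above 0.

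Complex I had the most nuclear subunits, 37, of which 12 rose and 14 fell in clone 1, 15 rose and 9 fell in clone 2, and 11 rose and none fell from clone 2 to the libraries labelled rescue. The called shares of 70.3%, 64.9% and 29.7% stand beside 61.5%, 62.1% and 39.2% of all genes tested. Under upper quartile scaling 20 rose and 7 fell in clone 2, and 7 rose and 1 fell for rescue against clone 2; the clone 2 split became 7 rose and 2 fell in complex IV and 10 and 2 in complex V. NDUFA2, an accessory subunit of the matrix arm, had 18.7, 19.2 and 17.4 CPM in wild-type, 30.1, 28.9 and 29.1 in clone 1, 22.3, 20.3 and 23.3 in clone 2 and 22.0, 23.1 and 21.7 in the libraries labelled rescue. Clone 1 was the highest group, by 0.68 (SE 0.060, adjusted p = 8.81e-13) against wild-type. NDUFA5, also of the matrix arm, had 70.6, 74.9 and 72.4 CPM in wild-type, 52.9, 55.7 and 58.5 in clone 1, 75.6, 82.2 and 80.3 in clone 2 and 77.2, 82.8 and 77.0 in the libraries labelled rescue. It fell in clone 1 by 0.38 (SE 0.045) and rose in clone 2 by 0.13 (SE 0.043), the second call being lost in 5 of 15 alternative settings, among them those without wild-type library 1, wild-type library 3, clone 2 library 2 or clone 2 library 3 (adjusted p = 0.057 to 0.11). NDUFA6 fell in both clones, by 0.41 and 0.29, and stood at −0.05 (adjusted p = 0.329) in the libraries labelled rescue. NDUFS7, an iron-sulfur subunit of the electron path, rose by 0.46 in clone 1, NDUFB7 rose by 0.29 there, and NDUFA11 rose by 0.41 in clone 2. Other genes, all on the opposite strand, cover 49.1% of the exon bases of NDUFS7.

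Among the 8 complex I assembly factors, 5 fell and 1 rose in clone 1, and 3 fell and 1 rose in clone 2. The called shares of 75% and 50% stand beside 61.5% and 62.1% of all genes tested. The fallen shares were 62.5% and 37.5%, beside 30.7% and 30.6%. NDUFAF3, which helps to join the first subunits of the quinone module, had 43.1, 42.7 and 41.7 CPM in wild-type, 33.9, 34.6 and 32.9 in clone 1, 18.2, 19.8 and 18.9 in clone 2 and 24.7, 24.2 and 25.5 in the libraries labelled rescue. The groups did not overlap, and clone 2 was less than 0.5 of wild-type. NDUFAF3 fell by 1.17 (SE 0.054, adjusted p = 1.55e-21) in clone 2 and by 0.33 in clone 1, and rose by 0.39 (SE 0.057, adjusted p = 4.70e-07) from clone 2 to the libraries labelled rescue. Exons of other genes on the opposite strand cover 21.7% of its exon bases. NDUFAF4 fell by 0.36 and NDUFAF6 by 0.31 in clone 1, NDUFAF8 by 0.30 in clone 2, and NDUFAF5 rose by 0.34 in clone 1. NDUFAF7, a methyltransferase that modifies a core subunit, fell by 0.36 from clone 2 to the libraries labelled rescue, and NDUFAF2 by 0.15, a call lost in 6 of 15 alternative settings, among them those without clone 2 library 2, clone 2 library 3, rescue library 1 or rescue library 3 (adjusted p = 0.079 to 0.22).

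Complex II, succinate dehydrogenase, has 4 subunits and links the chain to the tricarboxylic acid cycle. SDHA, the flavoprotein, fell by 0.19 (SE 0.034, adjusted p = 6.14e-06) in clone 2 and was at 0.015 in clone 1. SDHB, the iron-sulfur subunit, was not called in any of the 5 comparisons, with 172, 173 and 178 CPM in wild-type, 169, 172 and 176 in clone 1, 180.2, 164 and 186 in clone 2 and 174, 185 and 178 in the libraries labelled rescue. SDHC and SDHD anchor the enzyme in the membrane, and SDHC was at −0.057 and 0.045 in the clones, not called. SDHD, on chromosome 11, had 67.8, 64.6 and 67.2 CPM in wild-type, 53.3, 57.1 and 58.0 in clone 1, 39.2, 41.3 and 42.4 in clone 2 and 45.9, 47.5 and 42.9 in the libraries labelled rescue. The 4 groups did not overlap, wild-type being the highest and clone 2 the lowest. SDHD fell by 0.24 (SE 0.045) in clone 1 and by 0.70 (SE 0.047, adjusted p = 1.73e-16) in clone 2.

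Of the 10 nuclear complex III members, 5 fell and 1 rose in clone 1, and 4 fell and 3 rose in clone 2. The called shares of 60% and 70% stand beside 61.5% and 62.1% of all genes tested. The fallen shares were 50% and 40%, beside 30.7% and 30.6%. CYC1, cytochrome c1, had 155, 171 and 156 CPM in wild-type, 127, 126 and 123 in clone 1, 114, 119.5 and 109.5 in clone 2 and 129.9, 129 and 128 in the libraries labelled rescue, each clone library being below all of wild-type. It fell by 0.36 and 0.49 in the clones (SE 0.037 and 0.038). UQCRC1, a core protein, had 266, 294 and 272 CPM in wild-type, 259, 249.8 and 259.7 in clone 1, 206, 201 and 199.9 in clone 2 and 238, 234 and 227 in the libraries labelled rescue. Clone 2 was the lowest group, 0.45 (SE 0.034) below wild-type, and UQCRC1 rose by 0.20 (SE 0.035) from there to the libraries labelled rescue. UQCRB, a subunit at the quinone site, fell most of complex III in clone 1, from 107, 97.1 and 108 CPM to 70.4, 66.3 and 69.1, and had 80.1, 82.1 and 85.6 CPM in clone 2 (log2 fold changes of −0.61 and −0.34). UQCRQ went up, from 79.0, 74.5 and 80.8 CPM in wild-type to 89.0, 96.5 and 96.8 in clone 1 and 101, 111 and 107 in clone 2, by 0.27 and 0.44. UQCR11 rose by 0.30 in clone 2 and was at −0.11 in clone 1. UQCRFS1, the Rieske iron-sulfur protein, was not called in any comparison (lowest adjusted p 0.0736). UQCRH and its near copy UQCRHL may exchange reads; they fell by 0.14 and 0.18 in clone 1, the second call being lost without wild-type library 1 or clone 1 library 3 (adjusted p = 0.058 to 0.06), and neither was called in clone 2.

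Nuclear complex IV members numbered 16, of which 13 were tested, and 3 rose and 4 fell in clone 1 and 3 rose and 3 fell in clone 2. The called shares of 53.8% and 46.2% are below the 61.5% and 62.1% of all genes tested. The fallen shares were 30.8% and 23.1%, beside 30.7% and 30.6%. COX6B1, which bridges the dimer, had 167, 173 and 163 CPM in wild-type, 201, 194 and 194 in clone 1, 236, 234 and 242 in clone 2 and 253, 275 and 254 in the libraries labelled rescue. Every group was separate, in that rising order, and the changes against wild-type were 0.23 (SE 0.035, adjusted p = 3.52e-07) in clone 1 and 0.50 (SE 0.035, adjusted p = 5.56e-16) in clone 2. COX4I1, the regulatory subunit that binds ATP, rose by 0.25 and 0.32 in the clones and was 0.39 above wild-type in the libraries labelled rescue. COX6C fell by 0.21 and COX7A2 by 0.23 in clone 1, and COX7A2L, which holds complexes III and IV together, fell by 0.21 in clone 2. COX5B rose by 0.17 from clone 2 to the libraries labelled rescue. COX6A1 rose by 0.18 in clone 2. Of the alternative forms, NDUFA4L2 was near 1 CPM in all groups, while NDUFA4 had 228 ± 8.19 CPM (SD, n = 3) in wild-type and fell by 0.16 in clone 1.

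Complex V had 19 nuclear members, 18 of them tested, and 3 rose and 8 fell in clone 1, 7 rose and 4 fell in clone 2. The called share, 61.1% in each clone, is near the 61.5% and 62.1% of all genes tested. The fallen shares were 44.4% and 22.2%, beside 30.7% and 30.6%. The catalytic alpha and beta subunits differed in their changes. ATP5F1A, the alpha subunit, had 1123, 1101 and 1131 CPM in wild-type, 907, 885 and 894 in clone 1, 863, 824 and 895 in clone 2 and 868, 922 and 872 in the libraries labelled rescue. All 9 of these libraries were below wild-type, with log2 fold changes of −0.32, −0.38 and −0.33 in that order. ATP5F1B, the beta subunit, was chosen after its values were seen, as the most abundant nuclear member per kb. It had 1900.3, 1876 and 1921 CPM in wild-type, 1823, 1739 and 1751 in clone 1, 1883, 1785 and 1925 in clone 2 and 2050.0, 2163 and 2025 in the libraries labelled rescue. ATP5F1B fell by 0.10 in clone 1, was not called in clone 2 (−0.027, adjusted p = 0.471), and rose by 0.13 in the libraries labelled rescue. ATP5F1D, the delta subunit of the central stalk, rose by 0.50 (SE 0.043) in clone 1 and was at 0.025 in clone 2. ATP5MC1, of the membrane ring, fell by 0.12 in clone 1 and rose by 0.24 in clone 2. ATP5MF and ATP5PF rose by 0.29 and 0.25 in clone 2, and ATP5ME by 0.33, of whose exon bases 61.6% lie in other genes, all on the opposite strand.

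For nuclear members, position on chromosome 11 went with a fall in clone 2. On chromosome 11 lie 7 of them: NDUFS3 (chr11:47565336-47584562, hg38), COX8A (chr11:63974607-63976543), NDUFV1 (chr11:67605653-67612554), NDUFS8 (chr11:68030617-68036644), NDUFC2 (chr11:78068304-78080219), SDHD (chr11:112086773-112120013) and ATP5MG (chr11:118401154-118431496). All 7 fell in clone 2, with a median of −0.45 and a range from −1.13 to −0.42, beside 30.6% of all genes tested called lower. The 704 other chromosome 11 genes compared had a median of −0.60 there and 88.8% were below 0. Such sets of other genes, here and below, left out part of the genes tested, whereas member medians used every tested member. All 7 also fell in the libraries labelled rescue against wild-type (median −0.35, other chromosome 11 genes −0.55), where 29.9% of all genes were lower, and in clone 2 against clone 1 (median −0.50, others −0.56), where 31.9% were lower. In clone 1, 2 of the 7 rose and 4 fell, and the other chromosome 11 genes had a median of −0.014. The 83 tested nuclear members on other chromosomes had 29 that rose and 18 that fell in clone 2, with a median of 0.045. DNA copy number was not analysed here.

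NDUFC2, a membrane-arm subunit, showed the largest fall of the 7 in clone 2. It had 15.6, 13.5 and 15.5 CPM in wild-type, 11.4, 12.5 and 11.1 in clone 1, 6.84, 5.87 and 7.69 in clone 2 and 7.67, 8.06 and 9.10 in the libraries labelled rescue, a log2 fold change of −1.13 (SE 0.093, adjusted p = 9.35e-14) in clone 2, and other genes cover 18.1% of its exon bases. Clone 2 overlapped only with the libraries labelled rescue. NDUFV1, which binds NADH, and NDUFS8, an iron-sulfur subunit of the matrix arm, both had their lowest group in clone 2. NDUFV1 had 167, 184 and 163 CPM in wild-type, 187, 176 and 169 in clone 1, 128, 128 and 120.3 in clone 2 and 136, 138 and 130.0 in the libraries labelled rescue. NDUFS8 had 62.3, 57.3 and 55.0 CPM in wild-type, 65.6, 64.9 and 71.2 in clone 1, 45.8, 41.9 and 42.5 in clone 2 and 52.4, 52.1 and 48.7 in the libraries labelled rescue. Clone 1 overlapped with wild-type for NDUFV1 and lay above it for NDUFS8. The falls in clone 2 were 0.45 and 0.42, with 0.42 for NDUFS3, 0.45 for COX8A, of whose exon bases 34.5% lie in other genes, and 0.56 for ATP5MG. From clone 2 to the libraries labelled rescue all 7 rose, with a median of 0.15, beside 19.3% of all genes tested called higher. The rises of NDUFS3 and COX8A lost their call in 7, that of NDUFV1 in 6, that of NDUFC2 in 4 and that of SDHD in 1 of 15 alternative settings. The lost calls included NDUFS3 without clone 2 library 1, clone 2 library 2, rescue library 1 or rescue library 2 (adjusted p = 0.065 to 0.13), COX8A without clone 2 library 3, rescue library 2 or rescue library 3 (adjusted p = 0.058 to 0.15), NDUFV1 without clone 2 library 3, rescue library 1 or rescue library 2 (adjusted p = 0.064 to 0.13), NDUFC2 without clone 2 library 1, clone 2 library 2 or rescue library 3 (adjusted p = 0.056 to 0.13) and SDHD without clone 2 library 1 (adjusted p = 0.0641). NDUFS8 (0.23) and ATP5MG (0.18) kept theirs.

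**Figure D5:**
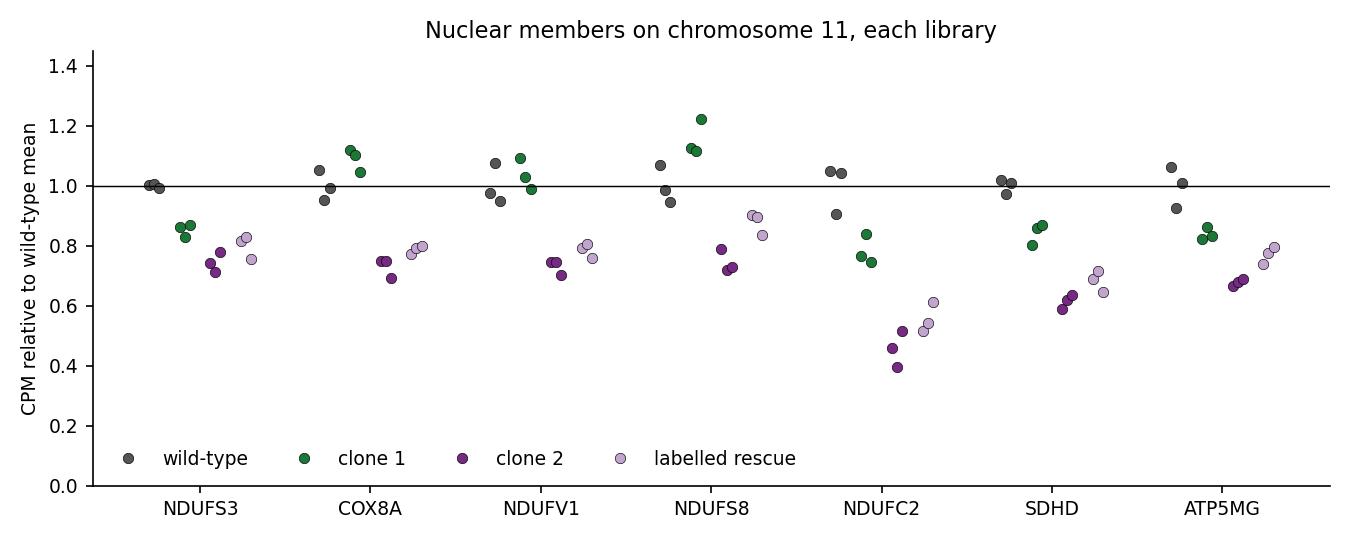
CPM of the 7 nuclear members on chromosome 11 in each of 12 libraries, divided by the gene's wild-type mean (linear axis from 0, line at 1). Points are libraries, and genes run in order along the chromosome. Every clone 2 library is below every wild-type library of its gene, while clone 1 lies above 1 for NDUFS8 and below for SDHD and NDUFC2.

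Promoters of the nuclear members were read in the window from 250 bases before to 50 bases after the start, which RefSeq gave for 75 of the 94 (GRCh38.p14). Both strands were searched for the ETS motif CCGGAAG that GABP binds and for the 10-base motifs of NRF1 and YY1. The YY1 motif is spelled in capitals in ATP5PF below. For NRF1, a base near the middle of the motif was left free. The capitals in SDHD below are thus an example of it, and matches with another base there were counted too. NRF1 and GABP are the factors best known for driving respiratory genes. The NRF1 motif stood in 24% of the members' windows against 12.8% of the windows of 11559 tested genes, the ETS motif in 30.7% against 21.2%, and the YY1 motif in 12% against 3.02%. Of 6 chromosome 11 members with a window, 4 held the ETS motif and 1 the NRF1 motif. Stretches from the windows of 3 of these, which fell together in clone 2, and of UQCRQ and ATP5PF, which rose there, are shown. Motifs are in capitals on the strand of the gene. Only bases before the start are shown, so motifs further on in a window are not marked.
SDHD: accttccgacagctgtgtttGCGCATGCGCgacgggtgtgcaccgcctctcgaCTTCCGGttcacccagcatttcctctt
NDUFS3: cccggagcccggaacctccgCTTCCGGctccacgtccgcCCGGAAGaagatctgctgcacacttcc
COX8A: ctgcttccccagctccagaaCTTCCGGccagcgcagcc
UQCRQ: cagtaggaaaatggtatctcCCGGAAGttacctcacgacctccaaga
ATP5PF: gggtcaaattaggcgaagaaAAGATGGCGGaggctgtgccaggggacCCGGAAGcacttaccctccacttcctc
They lie at chr11:112086743-112086822, chr11:47578952-47579017, chr11:63974582-63974619 and chr5:132866568-132866614 on the plus strand, and at chr21:25735058-25735131 on the minus strand. In these stretches SDHD holds both the NRF1 and the ETS motif, ATP5PF a YY1 and an ETS motif, and NDUFS3 2 ETS motifs. COX8A and UQCRQ, which went in opposite directions in clone 2, hold 1 ETS motif each there. A longer stretch of ATP5PF, at chr21:25734905-25735131, ends before another start and holds 3 motifs: ETS, ETS and YY1. A match is a description of the letters and not a bound site.

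Outside chromosome 11, 21 chromosomes had at least 2 tested members. Their members and their other genes had medians of the same sign on 19 of 21 in clone 2 and on 16 in clone 1. The number was 15 for rescue against wild-type, 14 for clone 2 against clone 1 and 13 for rescue against clone 2. This was not tested further. Among the 10 tested members on chromosome 19 are COX6B1, ATP5F1D, NDUFS7, NDUFB7, UQCR11 and NDUFA11. The 10 had medians of 0.21 in clone 1 and 0.25 in clone 2, beside 0.20 and 0.15 for the 890 other genes compared. The 4 on chromosome 3, which include NDUFAF3 and UQCRC1, had medians of −0.12 in clone 1 and −0.35 in clone 2, beside −0.11 and −0.20 for 770 others. The 5 on chromosome 8, which include UQCRB and CYC1, had medians of −0.31 in clone 1 and −0.098 in clone 2, beside −0.20 and −0.22 for 481 others. These 3 chromosomes were chosen after their values were seen.

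Companion lists are given beside all genes tested, of which 61.5% were called and 30.7% were lower in clone 1 and 62.1% and 30.6% in clone 2. Of 18 genes for replication and transcription of mitochondrial DNA, 2 rose and 11 fell in clone 1 and 2 rose and 9 fell in clone 2 (medians −0.15 and −0.12). The fallen shares were 61.1% and 50%, and the called shares 72.2% and 61.1%. Under upper quartile scaling 5 rose and 7 fell in clone 2. TFAM, which packs mitochondrial DNA and starts its transcription, fell from 171 to 155 CPM in clone 1 (−0.14, adjusted p = 0.000731) and was at 164 CPM in clone 2 (−0.061, adjusted p = 0.136, not called). POLRMT, the mitochondrial RNA polymerase, rose by 0.30 in clone 1 and by 0.094 in clone 2. RNASEH1, which removes RNA from RNA-DNA hybrids, fell by 0.64 and 1.03, and MTERF3, a negative regulator of mitochondrial transcription, fell by 0.73 and 0.54.

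Of 24 genes for processing and stability of mitochondrial RNA, 2 rose and 13 fell in clone 1 and 4 rose and 10 fell in clone 2. The called shares of 62.5% and 58.3% are near those of all genes, with 54.2% and 41.7% fallen, and under upper quartile scaling 7 rose and 7 fell in clone 2. LRPPRC, which binds and stabilizes mitochondrial mRNAs, fell by 0.09 in clone 1 and 0.18 in clone 2, and fell by a further 0.25 from clone 2 to the libraries labelled rescue. PNPT1, a subunit of the enzyme that degrades mitochondrial RNA, fell by 0.24 and 0.28, and REXO2, an oligoribonuclease on chromosome 11, fell by 0.47 and 0.61. MTPAP, the mitochondrial poly(A) polymerase, fell by 0.11 in clone 1 and was at 0.051 (adjusted p = 0.302) in clone 2. PRORP, a subunit of mitochondrial RNase P, rose by 1.02 in clone 2 but stood below 1 CPM in every group. DHX30, which serves assembly of the mitochondrial ribosome, fell by 0.59 in clone 2. Among 75 mitochondrial ribosomal proteins, 12 rose and 40 fell in clone 1 and 11 rose and 43 fell in clone 2 (medians −0.12 and −0.15). The fallen shares were 53.3% and 57.3% and the called shares 69.3% and 72%, and under upper quartile scaling 15 rose and 34 fell in clone 2. The 4 of them that fell most in clone 2, MRPL23, MRPL48, MRPL17 and MRPL49, are all on chromosome 11, at −0.95, −0.88, −0.86 and −0.85. From clone 2 to the libraries labelled rescue 28 rose and 6 fell, the risen share being 37.3% beside 19.3% of all genes tested.

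Regulators and partners of the nuclear members were mixed. Of 13 tested regulators, 2 rose and 8 fell in clone 1 and 4 rose and 8 fell in clone 2, 61.5% fallen in each. Under upper quartile scaling 5 rose and 5 fell in clone 2. NRF1 fell by 0.19 and 0.34 and GABPB2, a GABP partner subunit, rose by 0.78 and 0.70, in clone 1 and clone 2. The other partner subunit, GABPB1, fell by 0.14 and 0.26, and GABPA, the DNA-binding subunit, was not called (−0.0054 and 0.058, adjusted p = 0.934 and 0.3). ESRRB rose by 0.32 and 0.45, ESRRA, on chromosome 11, fell by 0.33 in clone 2, and PPARGC1A was not analysed here. Of 47 other assembly factors, 6 rose and 16 fell in clone 1 and 10 rose and 22 fell in clone 2. The fallen shares of 34% and 46.8% and the called shares of 46.8% and 68.1% put clone 1 below all genes in calls, and under upper quartile scaling 13 rose and 17 fell in clone 2. The low-count FMC1 rose by 0.99 in clone 2. Those that fell most there were the chromosome 11 genes COA4 (−1.20), TMEM126A (−1.10) and TMEM126B (−0.94), and in clone 1 it was TMEM70 (−0.74), which assembles complexes I and V. In the tricarboxylic acid cycle list of 14, 2 rose and 6 fell in clone 1 and 4 rose and 6 fell in clone 2 (called shares 57.1% and 71.4%; 4 rose and 4 fell in clone 2 under upper quartile scaling), with fumarase (FH) at −0.33 and −0.21. Among 14 genes of electron carriers and quinone synthesis, 4 rose and 6 fell in clone 1 and 6 rose and 5 fell in clone 2, called shares of 71.4% and 78.6%; under upper quartile scaling 7 rose and 3 fell in clone 2. CYCS, cytochrome c, fell by 0.29 and 0.12, COQ2 fell by 0.82 and COQ10B rose by 0.67 in clone 2.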

How the data were processed

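The authors deposited raw counts of reads per gene, 1 column per library, from stranded poly(A) libraries. Per the submitters' processing notes, FastQC, STAR and hg38 were used. The counter, its strand setting and the annotation are not named in any source used here, so overlapping, antisense and near-identical genes are uncertain. Symbols, gene types and exon lengths came from a gene name table and GENCODE 29, and promoter windows from RefSeq.

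Counts of 17084 genes (edgeR's expression filter, minimum count 10) went into edgeR 4.0.16 (R 4.3.3): TMM scaling, 1 mean per group over the 12 libraries, 8 residual degrees of freedom, and Benjamini-Hochberg adjustment over all genes. The common biological coefficient of variation was 2.95%. The fit was tested on simulated data. Over the comparisons, 54% to 60% of 1.25-fold changes and 94% to 100% of 4-fold changes were recovered. False calls ran from 6 of 155 calls (clone 1 against wild-type) to 14 of 170 (rescue against clone 2). Library pairs of a group differed beyond sampling noise (chi-square per degree of freedom 1.58 to 3.40).

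Members and lists were chosen with earlier results of these data known. Named genes were all mitochondrial members, the SDH genes, CYC1, UQCRFS1 and CYCS, the 2 called members that rose and fell most per complex and comparison without overlap of groups, those past 2-fold, those on chromosome 11, isoform pairs, some known regulators and up to 4 called genes per companion list. Alternatives were DESeq2 1.42.0 size factors or its Wald test, upper quartile or nuclear scaling, other filters, limma-voom (limma 3.58.1), fewer groups, a replicate block, and each library left out.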

Additional observations from a re-analysis of the deposited data

Results flagged for a closer look

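The knockout clones differed from each other in 13 of the 15 mitochondrial and 64 of the 90 tested nuclear members. This is clone 2 against clone 1 by edgeR's quasi-likelihood test, where 62.2% of all genes were called. MT-ND2, MT-ND4L and MT-ND4 lost that call in some alternative settings. Of the nuclear members, 7 were called in opposite directions in the clones against wild-type. The same share over all genes tested was not worked out, so this count has no background to stand beside. Clone 2 was above clone 1 for ATP5MC1 (log2 difference 0.37), NDUFA5 (0.51) and NDUFB3 (0.50). It was below clone 1 for COX8A (−0.58), NDUFA12 (−0.29), NDUFC1 (−0.56) and NDUFS8 (−0.63). COX8A lost its call in clone 1 without wild-type library 2, wild-type library 3 or clone 1 library 1 (adjusted p = 0.063 to 0.075), and NDUFA5 lost its call in clone 2 without wild-type library 1, wild-type library 3, clone 2 library 2 or clone 2 library 3 (adjusted p = 0.057 to 0.11).

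A signal also appeared in genes outside the members. MT-TP, a mitochondrial tRNA gene of the strand that also carries MT-ND6, had 26.5, 31.3 and 25.9 CPM in wild-type, 29.3, 31.5 and 31.2 in clone 1, 55.2, 61.2 and 60.6 in clone 2 and 39.8, 45.3 and 37.4 in the libraries labelled rescue. Its log2 fold change was 1.08 in clone 2 and 0.56 in the libraries labelled rescue, both called, and 0.15 in clone 1 (adjusted p = 0.0528, edgeR). Nuclear copies of mitochondrial genes were called higher than wild-type in 3 cases in clone 1, 18 in clone 2 and 13 in the libraries labelled rescue, of 23 tested. Of all genes tested, 30.8%, 31.5% and 28.5% were called higher in that order.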

How the results depend on the processing

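Of 205 levels and counts of called members in either direction under alternative settings, 201 kept to their value within the limits set (1.5 times for a count, 1 SD for a level), 4 moved and 0 reversed. The log2 level of mitochondrial mRNA against nuclear members moved when medians of log2 CPM replaced sums, to 0.063 in clone 1 (main value 0.20), 0.40 in clone 2 (0.45) and 0.15 in the libraries labelled rescue against wild-type (0.25), and to 0.51 in clone 2 when the rRNAs were added. Of 4787 values of named members, 4557 kept their side of the threshold, 155 lost a call, 75 gained one and 0 reversed. Split by direction, 12 of 310 counts moved by over 1.5 times. Nuclear members that rose in clone 2 went from 29 to 45 under upper quartile scaling. The count of mitochondrial members that rose from clone 2 to the libraries labelled rescue, 2, was 1 under upper quartile scaling, with the DESeq2 Wald test and without clone 2 library 1 or rescue library 1, and 3 without rescue library 2. Nuclear members that fell there numbered 2, with 5 under upper quartile scaling and 1 with no filter, with the DESeq2 Wald test and without clone 2 library 2 or 3 or rescue library 1 or 3. Upper quartile scaling shifted the median of all genes in clone 2 by 0.069. The upper quartile counts by complex and by companion list were chosen after seeing the data. So was leaving out the chromosome 11 members, which left 47 nuclear members called in clone 2 (29 higher, 18 lower).

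Whether replicate numbers pair the libraries was not settled. Deviations of same-numbered libraries never correlated above 0.1 in all 3 pairs of any 2 groups. Between the clones they correlated at 0.063, 0.11 and 0.11, while differently numbered libraries ran from −0.094 to −0.017. In every other pair of groups the same-numbered values had both signs. With the replicate block, 9, 14, 13, 11 and 13 mitochondrial members were called for clone 1, clone 2 and rescue against wild-type, rescue and clone 2, and clone 2 against clone 1, as without it, and 54 nuclear members in clone 2.

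With 3 against 3 libraries the smallest two-sided p of an exact permutation test is 0.1. Depth limits the members with few counts, NDUFA13, NDUFA7 and NDUFV2 among them.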
